A study of Mus musculus with 70 samples.

Results

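RENCA is a mouse renal adenocarcinoma cell line, and the cells studied here carried a GFP marker. They had been passed through BALB/c mice 6 times (P6) by different routes and recovered into culture after each passage. KPT lines came from tumours that grew in the left kidney after injection under the renal capsule, and T-LM lines came from lung metastases that formed after injection into the tail vein, with no tumour in the kidney. All mice were wild type and immunocompetent, and per the study's methods they were females aged 6 weeks. The number of cells injected differed between the routes. The comparison uses the 9 P6 samples of the first set of slides, which are 5 KPT samples and 4 T-LM samples out of 70 samples in the series. The members were taken by their titles alone, and second hybridisations of P6 kidney RNA on a later slide were left out. Unpassaged RENCA cells (P0, 2 samples) and the P5 lines of both routes (5 KPT, 6 T-LM) are given beside them. P5 and P6 are successive passages of the same lineages, so they are not independent of each other.

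An orthotopic kidney tumour grows in the organ the cancer arose from. Cells in a tail vein skip growth in the kidney, lodge in the first capillary bed, which is that of the lung, and have to survive and grow there. Secreted chemokines, cytokines, proteases and matrix proteins are classes of genes through which tumour cells and the surrounding tissue act on each other. Adhesion molecules and lineage transcription factors describe what kind of epithelial cell a carcinoma still resembles.

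RNA from each sample was hybridised alone, in one dye, to an Agilent mouse array. A level is the log2 processed signal of a probe minus the log2 75th percentile of its array, so a level of 0 lies at that percentile and levels near −8 are usually not above background. Probes differ in brightness, so levels are compared between samples and never between genes. A difference is the T-LM mean minus the KPT mean on this log2 scale, with its standard error (SE) from limma. A gene was called where its p, adjusted by the Benjamini-Hochberg method over all probes tested, was at most 0.01, and a gene with several probes is represented by its brightest one. Where a gene was not well above background on any array of one group, its difference has only a bound, given as "at least N-fold". The labels do not say whether samples of one group came from separate mice, so the p-values measure the spread between these samples.

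The share of probes well above background was 31.4 to 37.2% over the 9 arrays, with overlap between the routes. Correlations over probes ran from 0.979 to 0.992 between KPT arrays, from 0.976 to 0.992 between T-LM arrays and from 0.941 to 0.975 between the groups. The first principal component held 59.4% of the variance and separated the routes, and the second held 18.9% and set KPT replicate 4 and T-LM replicate 2 apart from the other arrays. None of 16 tested long mRNAs and none of 78 tested ribosomal protein genes was called, which bears on RNA integrity. The labelled renal carcinoma identity was borne out in part: the keratins Krt8 and Krt18, the intermediate filament gene Vim and the renal lineage factor Pax8 were well above background on all 9 arrays, while the renal factor Pax2 and the tubule injury marker Havcr1 were at background on all 9.

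The promoters of a few genes of the comparison are shown first, because the cytokine, protease and interferon-response genes described below are textbook targets of factors that bind short motifs near the start of a gene. Il6 and Mmp3 were higher in T-LM, and Rsad2 and Ifit3 were higher in KPT. Each line gives the 250 bases before the annotated start, 5′ to 3′ on the gene's strand, from RefSeq on GRCm38.p6. Capitals mark matches to TGANTCA (the AP-1 motif), to GAAA and GAAA with any 2 bases between them (an interferon response motif) or to GGG and TTTCC with any 2 bases between them (an NF-kappaB motif) on either strand, and no matches overlap.
Il6, chr5:30012864-30013113, plus strand: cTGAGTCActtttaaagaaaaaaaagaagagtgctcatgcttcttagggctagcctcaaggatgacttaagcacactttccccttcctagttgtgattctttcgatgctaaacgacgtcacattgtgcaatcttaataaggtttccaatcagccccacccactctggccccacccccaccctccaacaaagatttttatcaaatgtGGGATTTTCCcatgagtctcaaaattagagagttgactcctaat
Mmp3, chr9:7445572-7445821, plus strand: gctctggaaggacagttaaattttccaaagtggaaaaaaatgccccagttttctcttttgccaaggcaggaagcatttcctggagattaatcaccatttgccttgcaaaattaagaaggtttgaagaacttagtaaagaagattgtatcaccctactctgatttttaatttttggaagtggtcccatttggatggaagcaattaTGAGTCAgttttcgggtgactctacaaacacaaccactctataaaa
Rsad2, chr12:26456453-26456702, minus strand: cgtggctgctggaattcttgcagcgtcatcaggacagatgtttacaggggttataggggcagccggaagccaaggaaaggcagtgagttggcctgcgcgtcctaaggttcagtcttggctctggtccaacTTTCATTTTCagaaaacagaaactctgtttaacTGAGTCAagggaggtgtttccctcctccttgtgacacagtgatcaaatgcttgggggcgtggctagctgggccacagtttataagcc
Ifit3, chr19:34583279-34583528, plus strand: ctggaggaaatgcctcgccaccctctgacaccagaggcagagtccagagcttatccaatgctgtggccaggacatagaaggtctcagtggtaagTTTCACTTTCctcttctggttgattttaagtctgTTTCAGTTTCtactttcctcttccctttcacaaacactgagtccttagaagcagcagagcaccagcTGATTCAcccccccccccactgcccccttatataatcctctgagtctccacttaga

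The Il6 window had an AP-1 match 249 bases before the start and an NF-kappaB match 44 bases before it, and the Mmp3 window had an AP-1 match 46 bases before the start. In Rsad2 the AP-1 match lay 87 bases and the interferon motif 120 bases before the start. In Ifit3 an AP-1 match lay 56 bases before the start, with interferon motifs at 156 and 122 bases. The same motifs were counted in windows of 300 bases (250 before to 50 after the start), which existed for 9380 of the 11760 genes tested. The AP-1 motif was present in 8.97% of the windows of all genes, in 6.68% of tested genes, in 10.4% of genes higher in T-LM and in 12.5% of genes higher in KPT. The interferon response motif was present in 3.99% of all windows, in 3.69% of tested genes, in 5.4% of those higher in T-LM and in 2.93% of those higher in KPT. The NF-kappaB motif was present in 1.89% of all windows, in 2% of tested genes, in 2.98% of those higher in T-LM and in 3.66% of those higher in KPT. These shares describe letters in the windows and no binding was measured.

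Genes higher in T-LM were more numerous, and differed by more, than genes higher in KPT. Of 11760 genes tested, 952 (8.10% of all tested) were higher in T-LM and 364 (3.10%) were higher in KPT, 11.2% in all. A difference of 2 or more on the log2 scale was fitted for 536 of the former and for 26 of the latter. The median difference of called genes was 2.19 among those higher in T-LM and −0.95 among those higher in KPT. A group at background on all of its arrays was common: 457 of the genes higher in T-LM and 52 of those higher in KPT have only a bound, and the median differences with such genes set to their bounds were 1.26 and −0.86. Such genes were tested only through the signal of the other group. Counts that include them, also in the lists below, are no independent evidence of direction. The samples of the routes did not overlap for 1313 of the 1316 called genes, against 19.5% of all tested genes.

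P0 levels were set beside these differences. For 903 of the 952 genes higher in T-LM the P0 mean lay nearer to the KPT mean, and for 47 nearer to the T-LM mean. Of the 952, 457 were at background on all KPT arrays and were tested only through their T-LM signal. For those genes a P0 level at background lies near KPT by construction. The side of P0 was not counted over all tested genes. Among genes higher in KPT, P0 lay nearer to KPT for 198 and nearer to T-LM for 164. The 2 P0 samples were not part of the test.

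At probe level 1822 of 20658 probes (8.82%) were called, and 1500 were called when KPT replicate 4 and T-LM replicate 2 were left out together, a choice made after seeing the data. The 9 arrays lay on 8 slides, and a single slide held both routes. On that slide 1315 of the 1315 called genes measured on both arrays (KPT replicate 1, T-LM replicate 4) had the direction of the call, which follows from groups that hardly overlap and is no check on the slides. Over all first-set arrays, with spread pooled over their groups, 620 probes were called. Adding slide to that fit as a random block gave 590, and as a fixed block 356.

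**Figure D1:**
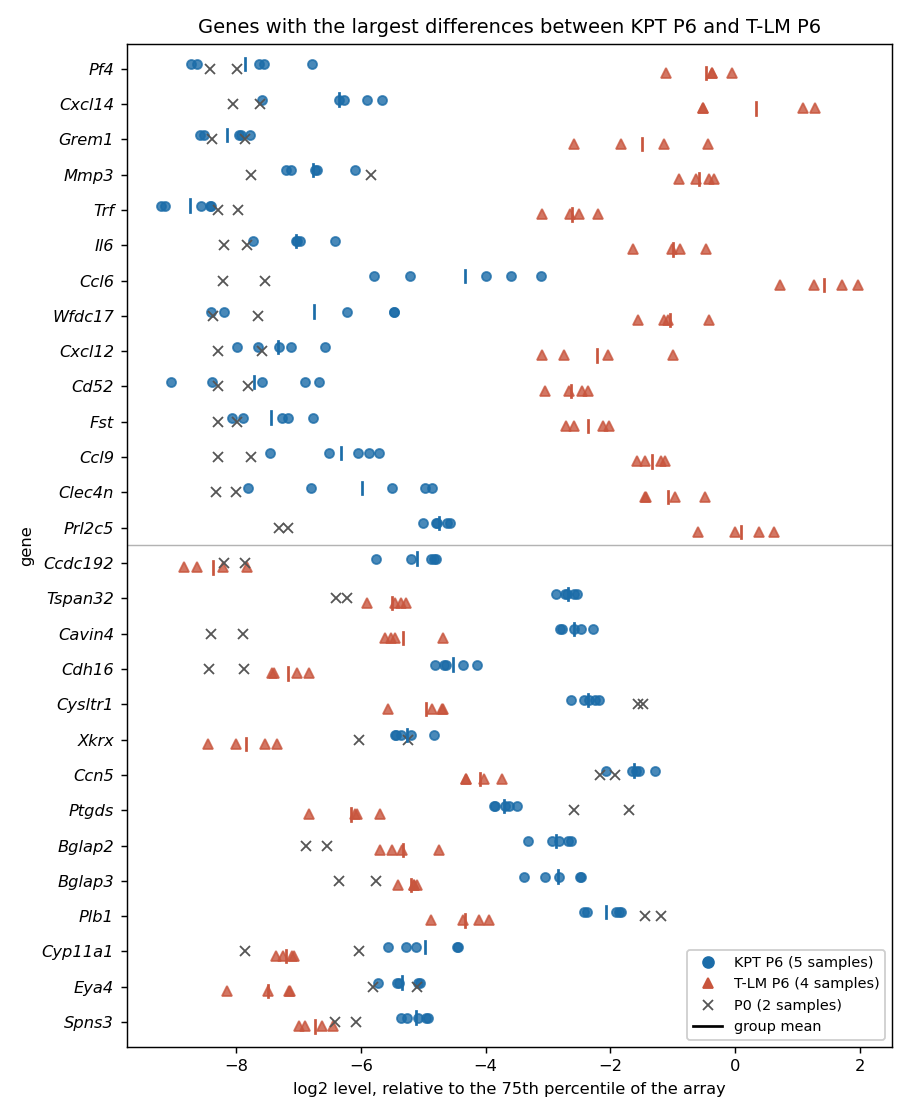
Levels of 14 genes higher in T-LM and 14 genes higher in KPT at P6, on the horizontal axis as log2 signal relative to the 75th percentile of the array, with 1 point per sample (5 KPT, 4 T-LM) and crosses for the 2 P0 samples. In each gene plotted the points of the routes are separate, and the gaps are wider among the genes higher in T-LM, for example 7.39 for Pf4 against −2.81 for Tspan32.

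Chemokines, the secreted attractants of leukocytes, made up the function list with the highest share of calls. Of 21 tested chemokine genes 15 were higher in T-LM and 1 in KPT, and the list's median difference was 2.33 (1.74 with bounds) against −0.02 for all tested genes. The calls were 76.2% of the list, against 11.2% of all tested genes. Pf4, a chemokine known from platelets, stood at −7.55, −7.63, −6.78, −8.73 and −8.63 in the 5 KPT samples and at −0.36, −0.05, −0.37 and −1.11 in the 4 T-LM samples. It was well above background on 1 of 5 KPT arrays and on every T-LM array, and its difference of 7.39 (SE 0.38, limma adjusted p = 4.8e-07) was the largest of any named gene. Cxcl14, an epithelial and stromal chemokine, ranged from −7.59 to −5.67 in KPT and from −0.52 to 1.28 in T-LM, a difference of 6.69 (SE 0.47, limma adjusted p = 3.5e-06). Both P0 samples were at background for Pf4 and Cxcl14.

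Cxcl12, the ligand of Cxcr4, was at background in all KPT samples and stood at −2.22 ± 0.92 (SD, n = 4) in T-LM, at least 21.6-fold higher. Ccl6 and Ccl9, related CC chemokines whose probes may share signal, differed by 5.76 and 4.99. Ccl6 was measurable in KPT too, where it spread from −5.79 to −3.11, while T-LM samples lay between 0.72 and 1.96. The exception among chemokines was Cx3cl1, the membrane-bound ligand of Cx3cr1, which stood between −3.70 and −3.13 in KPT and between −4.51 and −4.05 in T-LM (difference −0.94, SE 0.15, limma adjusted p = 9.6e-04). For Cx3cl1 the P0 samples, at −4.66 and −4.36, lay with T-LM.

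Cytokines and myeloid growth factors were divided, with 7 of 18 tested genes higher in T-LM and 2 in KPT. That is 50% of the list, against 11.2% of all tested genes. Il6, which acts through gp130 and Stat3 and whose promoter is printed above, stood at −7.74, −6.42, −6.98, −7.03 and −7.05 in KPT and at −0.88, −1.01, −0.47 and −1.65 in T-LM. No KPT array and no P0 array was above background for Il6, and T-LM was at least 48.9-fold higher, the largest bound of any named gene (limma adjusted p = 2.4e-07). Il11, which signals through the same receptor subunit, stood between −6.22 and −5.08 in KPT and between −1.83 and −0.91 in T-LM (difference 4.39, SE 0.27, limma adjusted p = 1.4e-06). Il1b, an inflammatory cytokine of myeloid cells in particular, was at least 6.37-fold higher in T-LM. The genes in the other direction were Il18, a cytokine matured by the inflammasome, and Csf1, the macrophage growth factor. Il18 stood at −3.26, −3.70, −3.21, −3.62 and −4.11 in KPT and at −5.08, −5.43, −5.45 and −4.86 in T-LM, a difference of −1.62 (SE 0.20, limma adjusted p = 2.1e-04). Csf1 differed by −1.05 with T-LM replicate 2, at 1.14, just under the lowest KPT sample at 1.16, and its call was lost in 7 of the 9 fits that left out 1 sample.

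Acute phase and complement genes, which liver and other cells induce in inflammation, were called mostly in the T-LM direction, with 14 of 27 tested genes higher in T-LM and 2 in KPT (median difference 0.70). That is 59.3% of the list, against 11.2% of all tested genes. Saa3 and Saa1 code for serum amyloid A proteins, whose genes are close relatives, so their probes may not be fully specific. Saa3 stood at −3.15, −3.66, −4.09, −4.32 and −4.56 in KPT and at 0.09, −0.64, 0.46 and 0.05 in T-LM, a difference of 3.95 (SE 0.30, limma adjusted p = 5.4e-06). Saa1 differed by 2.87 (SE 0.23), and Saa2 was not tested. The P0 levels of Saa3, −2.76 and −2.62, lay above every KPT sample and below every T-LM sample.

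Serpina3f, an acute phase protease inhibitor, differed by 2.95. Cfb, complement factor B of the alternative pathway, was between −7.78 and −5.98 in KPT and between −3.96 and −3.35 in T-LM (difference 2.82, SE 0.33, limma adjusted p = 1.4e-04). The classical pathway component C2 and the inhibitor heavy chain Itih4 were higher in KPT, by 1.06 and 1.38 on the log2 scale. In the interferon-stimulated and MHC class I list, whose median difference was −0.26, 1 of 47 tested genes was higher in T-LM and 4 in KPT. That is 10.6% of the list, close to the 11.2% of all tested genes.

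Among the interferon genes, Rsad2, an antiviral radical-SAM enzyme, stood at −5.51, −5.79, −5.00, −4.87 and −5.50 in KPT and was at background in all T-LM samples, at least 2.50-fold higher in KPT. Ifit3, an interferon-induced protein with tetratricopeptide repeats, differed by −1.19 (SE 0.19, limma adjusted p = 1.3e-03). The P0 samples, at −4.70 and −4.93, lay within the KPT range for Ifit3. Oasl1, a relative of the oligoadenylate synthetases, was the sole list member higher in T-LM, at 0.95 to 1.53 against −0.42 to 0.04 in KPT.

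Proteases and their inhibitors shape the matrix around a tumour, and 16 of 38 tested members were higher in T-LM against 1 in KPT (median difference 0.93, or 0.58 with bounds). That is 44.7% of the list, against 11.2% of all tested genes. Mmp3, stromelysin-1, stood at −7.21, −6.10, −6.71, −6.73 and −7.13 in KPT and at −0.91, −0.42, −0.34 and −0.62 in T-LM, a difference of 6.20 (SE 0.22, limma adjusted p = 5.3e-08). The T-LM samples lay close together for Mmp3, whose promoter with its AP-1 match is printed above. Mmp8, neutrophil collagenase, was at background in all KPT samples and between −3.18 and −2.83 in T-LM, at least 12.2-fold higher. Serpinb2, plasminogen activator inhibitor 2, was at least 12.1-fold higher in T-LM. Mmp2, gelatinase A, was the single member higher in KPT, at −2.25 to −1.48 against −3.04 to −2.53 (limma adjusted p = 2.5e-03).

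Matrix genes were higher in T-LM with named exceptions. Of 43 tested interstitial collagens and matrix glycoproteins 15 were higher in T-LM and 3 in KPT (median difference 0.66), and of 22 basement membrane genes 9 and 1. Among collagen modifying and crosslinking enzymes the counts were 9 and 2 of 25. In that order 41.9, 45.5 and 44% of the lists were called, against 11.2% of all tested genes. Col3a1, the fibrillar collagen III chain, stood at −5.76, −4.57, −4.67, −3.72 and −4.68 in KPT and at −1.01, −0.37, −1.24 and −2.30 in T-LM (difference 3.45, SE 0.42, limma adjusted p = 1.8e-04). The small proteoglycan gene Lum differed by 3.85 and was above background on 1 of 5 KPT arrays. In the basement membrane list nidogen, Nid1, differed by 3.57 and the collagen IV chain Col4a1 by 3.22. Of the enzymes, the procollagen N-proteinase Adamts2 differed by 3.53 and the collagen chaperone Fkbp10 by 3.47.

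Genes of the CCN family of matrix-associated proteins were called in both directions. Ccn5 stood at −1.59, −1.65, −1.54, −1.29 and −2.07 in KPT and at −3.75, −4.03, −4.31 and −4.31 in T-LM, a difference of −2.47 (SE 0.18, limma adjusted p = 3.9e-06). Its P0 samples, at −1.93 and −2.17, lay near KPT, so for Ccn5 it was T-LM that stood apart from unpassaged cells. Ccn4 differed by −0.96 and Ccn2, connective tissue growth factor, by 2.13 in the T-LM direction (SE 0.42, limma adjusted p = 5.0e-03), a call lost in 5 of the 9 fits that left out 1 sample. Also higher in KPT were the fibulin Fbln1, with a difference of −0.92, and the lysyl oxidase homologue Loxl4, with one of −1.19.

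**Figure D2:**
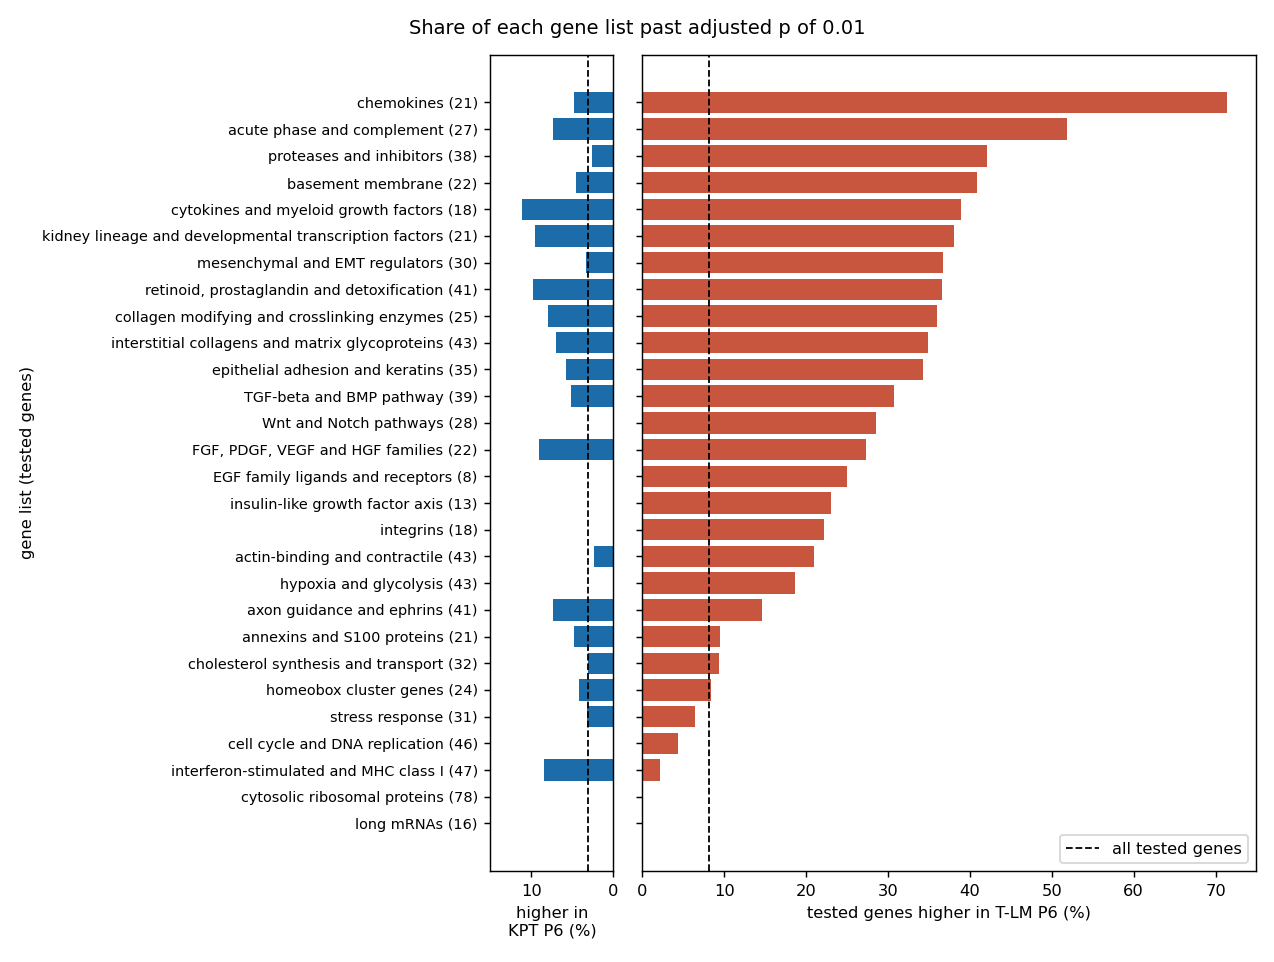
Percent of tested genes of each function list that were higher in KPT P6 (left) or higher in T-LM P6 (right) at a limma adjusted p of 0.01 or less, with the number of tested genes in parentheses after each name and a dashed line at the share of all 11760 tested genes. Chemokines reach 15 of 21 on the T-LM side, while long mRNAs and cytosolic ribosomal protein genes have no call on either side.

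Epithelial and mesenchymal genes did not sort by route as opposites. Of 35 tested epithelial adhesion and keratin genes 12 were higher in T-LM and 2 in KPT (median difference 0.28), and of 30 mesenchymal and EMT regulators 11 were higher in T-LM and 1 in KPT (median difference 0.76). In each list 40% were called, against 11.2% of all tested genes. Cdh1, E-cadherin, was at background in KPT and P0 and stood at −5.31, −4.13, −4.52 and −5.70 in T-LM, at least 3.34-fold higher. Krt7, a simple-epithelium keratin, stood between −6.22 and −5.71 in KPT and at −2.60, −1.86, −2.46 and −3.22 in T-LM (difference 3.36, SE 0.23, limma adjusted p = 3.0e-06). Epcam was above background on 2 of 4 T-LM arrays and on none of the others, and its call was lost in 6 of the 9 fits that left out 1 sample. Cdh1, Krt7 and the surfactant gene Sftpc, described below, were each highest in T-LM replicate 2 and lowest in T-LM replicate 4. The part of lung epithelial cells in the epithelial list was not tested. Neither Cdh2, N-cadherin (difference 1.29, limma adjusted p = 0.056), nor Vim, vimentin (difference −0.29, limma adjusted p = 0.14), was called.

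The called cadherins other than E-cadherin went in both directions. Cdh16, kidney-specific cadherin, stood at −4.67, −4.36, −4.81, −4.15 and −4.64 in KPT and was at background in all T-LM samples, at least 4.59-fold higher in KPT (limma adjusted p = 2.2e-06). It was at background in both P0 samples too. Cdh3, P-cadherin, stood between −3.69 and −3.03 in KPT and between −5.16 and −4.45 in T-LM (difference −1.41, SE 0.18, limma adjusted p = 2.8e-04). Its P0 samples, at −2.75 and −2.77, lay above both routes. Cdh11, a cadherin of mesenchymal cells, was at background in all KPT and P0 samples and above background on 3 of 4 T-LM arrays, at least 1.86-fold higher in T-LM (limma adjusted p = 6.4e-04).

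On the mesenchymal side Fap, fibroblast activation protein, was at least 3.75-fold higher in T-LM, and the homeobox factor Prrx1 at least 4.82-fold. S100a4, a calcium-binding protein also called fibroblast-specific protein, was the list's exception. It stood at 3.42, 3.11, 3.05, 2.95 and 3.14 in KPT, at 1.98, 2.06, 1.75 and 2.01 in T-LM and at 3.31 and 3.48 in P0 (T-LM minus KPT −1.18, SE 0.13, limma adjusted p = 7.0e-05). Actin-binding and contractile genes had 9 of 43 higher in T-LM and 1 in KPT, 23.3% of the list against 11.2% of all tested genes. The calponin gene Cnn1 differed by 3.84 (SE 0.60) and the actin-sequestering Tmsb4x by 3.78.

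Developmental transcription factors were called in both directions. Of 21 tested kidney lineage and developmental factors 8 were higher in T-LM and 2 in KPT, 47.6% of the list against 11.2% of all tested genes. Of 24 tested homeobox cluster genes 2 were higher in T-LM and 1 in KPT, a share of 12.5% that is near the share of all genes. Hoxb13, a posterior homeobox gene, stood at −5.64, −5.59, −5.51, −6.15 and −5.32 in KPT and was at background in all T-LM and P0 samples, at least 2.11-fold higher in KPT. Pax3 differed by −1.37 (SE 0.18, limma adjusted p = 2.7e-04) and was above background on 1 of 4 T-LM arrays. Eya4, a transcriptional co-activator of the eyes absent family, was at least 2.62-fold higher in KPT. The renal factor Pax8, at −3.07 to −2.23 in KPT and −3.39 to −2.98 in T-LM, was not called (difference −0.58, limma adjusted p = 0.056). On the T-LM side Tbx4, a T-box factor of the embryonic lung mesenchyme and hindlimb, and Tbx3 were at background in all KPT samples, at least 2.00-fold and 2.19-fold higher in T-LM.

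Secreted antagonists of the TGF-beta superfamily were among the widest differences. The pathway list had 12 of 39 tested genes higher in T-LM and 2 in KPT, 35.9% of the list against 11.2% of all tested genes. Grem1, which binds and blocks BMPs, was at background in KPT and P0 and stood at −1.14, −0.44, −1.83 and −2.58 in T-LM, at least 35.7-fold higher (limma adjusted p = 7.9e-07). Fst, follistatin, which binds activins, was at background in KPT and P0 and stood at −2.02, −2.11, −2.72 and −2.59 in T-LM, at least 19.6-fold higher. Higher in KPT were a BMP ligand and a stress-induced ligand. Bmp7 stood at −4.52, −4.23, −4.35, −4.57 and −4.47 in KPT and at −5.97, −6.07, −6.10 and −6.03 in T-LM (difference −1.61, SE 0.11, limma adjusted p = 2.8e-06), with P0 at background. Gdf15 stood between 1.96 and 2.50 in KPT and between 0.76 and 1.37 in T-LM (difference −1.20, SE 0.17).

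Other growth factor and guidance families had calls mostly in the T-LM direction. The counts were 8 and 0 of 28 for Wnt and Notch genes, 6 and 2 of 22 for the FGF, PDGF, VEGF and HGF families, 2 and 0 of 8 for the EGF family, 3 and 0 of 13 for the insulin-like growth factor axis, 4 and 0 of 18 for integrins and 6 and 3 of 41 for axon guidance genes. In that order 28.6, 36.4, 25, 23.1, 22.2 and 22.0% of the lists were called, against 11.2% of all tested genes. Calls over all genes also leaned to T-LM, at 8.10% against 3.10% for KPT. Rspo3, an amplifier of Wnt signalling, was at least 5.76-fold higher in T-LM, Ereg, an EGF receptor ligand, at least 6.00-fold, and Sema3c, a secreted semaphorin, at least 5.77-fold. Fgf7, keratinocyte growth factor, differed by 3.99 (SE 0.26, limma adjusted p = 2.1e-06). A related semaphorin, Sema3b, was higher in KPT, at a mean of −0.49 ± 0.20 (SD, n = 5) against −1.68 ± 0.20 (SD, n = 4). Fgf21, a metabolic hormone of the FGF family, was also higher in KPT, with a difference of −1.02.

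Metabolic lists held genes of both routes. In the retinoid, prostaglandin and detoxification list 15 of 41 tested genes were higher in T-LM and 4 in KPT (median difference 0.40). That is 46.3% of the list, against 11.2% of all tested genes. Crabp2, the cellular retinoic acid-binding protein, differed by 2.61 (SE 0.14, limma adjusted p = 5.5e-07). Ptgds, prostaglandin D2 synthase, stood at −3.50, −3.86, −3.87, −3.69 and −3.62 in KPT and at −6.09, −6.84, −6.06 and −5.69 in T-LM (difference −2.46, SE 0.20, limma adjusted p = 1.2e-05). Maoa, monoamine oxidase A, stood between −1.87 and −1.40 in KPT, between −3.51 and −3.04 in T-LM and at −0.26 and −0.43 in P0 (difference −1.76, SE 0.14). For Ptgds and Maoa the P0 samples lay above all P6 samples of both routes, with KPT nearer.

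Hypoxia and glycolysis genes had 8 of 43 higher in T-LM and none in KPT, 18.6% of the list against 11.2% of all tested genes. Among them the lactate exporter Slc16a3 differed by 4.28 (SE 0.43, limma adjusted p = 4.5e-05). In KPT Slc16a3 stood between −5.70 and −4.03 and in T-LM between −1.37 and 0.71. Cholesterol genes had 3 and 1 of 32, and stress response genes 2 and 1 of 31, shares near that of all genes. Cell cycle and DNA replication genes had 2 of 46 higher in T-LM and none in KPT, a share of 4.35% against 11.2% of all tested genes, and the members were the cyclin Ccnd2 and the inhibitor Cdkn2b.

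Several of the leading KPT genes belonged to none of the function lists. Tspan32, a tetraspanin, stood at −2.73, −2.59, −2.54, −2.70 and −2.87 in KPT and at −5.36, −5.90, −5.45 and −5.28 in T-LM, a difference of −2.81 (SE 0.15, limma adjusted p = 4.8e-07). Its P0 samples were at background. Cavin4, a muscle caveolae protein, stood between −2.81 and −2.28 in KPT and between −5.62 and −4.69 in T-LM, again with P0 at background (difference −2.73, SE 0.20). Cysltr1, a cysteinyl leukotriene receptor, stood between −2.63 and −2.18 in KPT and between −5.57 and −4.69 in T-LM, a difference of −2.60 (SE 0.19, limma adjusted p = 4.3e-06). It was high in P0, at −1.55 and −1.47. Plb1, phospholipase B1, had the same order, with P0 at −1.44 and −1.18, KPT between −2.43 and −1.83 and T-LM between −4.88 and −3.95 (difference −2.25, SE 0.21).

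The osteocalcin genes Bglap2 and Bglap3 differed by −2.44 and −2.36, and since they are near-identical copies they count as one uncertain signal. Bounds only were available for Cyp11a1, the side-chain cleavage enzyme of steroid synthesis (at least 3.35-fold higher in KPT), for Spns3 (at least 2.97-fold), Xkrx (at least 2.76-fold) and Ccdc192 (at least 3.09-fold). In T-LM the leading genes outside the lists were Trf, transferrin (at least 16.4-fold higher), Pigz, a mannosyltransferase of GPI anchors (at least 15.1-fold), Prl2c5, a member of the proliferin family of related copies (difference 4.86, SE 0.22), Wfdc17 and the lectin gene Clec4n (differences 5.70 and 4.91).

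The study's own signature lists for each route were chosen on these samples, so their counts are not independent evidence of direction. Each list held genes that changed from P0 to P6 in its route and were tied to patient outcome. The lists were not drawn from a comparison of the routes, and some genes are in both. The T-LM list was followed through 21 genes matched to a mouse symbol by name, and its 3 other genes were not used here. Of the 21 genes 15 were higher in T-LM and none in KPT, with a median difference of 2.61 (1.86 with bounds). That is 71.4% of the list, against 11.2% of all tested genes. Of the 14 KPT signature genes, 50% of which were called, 1 was higher in KPT and 6 in T-LM. The one was Padi3, a peptidylarginine deiminase, at −2.01 ± 0.21 (SD, n = 5) in KPT and −3.28 ± 0.10 (SD, n = 4) in T-LM. The KPT signature genes Btg3, an antiproliferative factor listed in both signatures, and Cyba, a subunit of the NADPH oxidase, differed by 3.52 and 3.41 in the T-LM direction.

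Markers of other cell types moved with the comparison. In bulk RNA, fewer cells of a type and less RNA per cell cannot be told apart. Of 20 tested leukocyte markers 14 were higher in T-LM and 1 in KPT, with a median difference of 2.13 (1.07 with bounds). That is 75% of those tested, against 11.2% of all tested genes. Of the 14, Cd52, S100a8, Adgre1 and Laptm5 were at background in all KPT samples and were tested only through T-LM signal. The mean level over all 30 leukocyte markers was −6.48 to −5.88 in KPT, −4.84 to −4.47 in T-LM and −6.64 and −6.42 in P0, and 13 to 16 of them were above background in KPT against 17 to 23 in T-LM. Their summed level, on the log2 scale, was 2.01 to 2.45 in KPT and 2.37 to 2.69 in T-LM and overlapped between the routes. Cd68, a lysosomal gene of macrophages, stood at 1.70 to 2.19 in KPT and at 1.07 to 1.34 in T-LM (difference −0.81, limma adjusted p = 1.2e-03). Cd52, Tyrobp and Ctss, genes of leukocytes and macrophages, were higher in T-LM, Cd52 by at least 15.6-fold and the others by differences of 3.62 and 3.43. Ptprc, the pan-leukocyte CD45 gene, was not called (difference −0.15, limma adjusted p = 0.63), and C1qb, C1qc, Cx3cr1, Cd79a and Ms4a1 were at background on all 9 arrays. These markers moved with the chemokine, cytokine and protease lists, and their part in those results was not tested.

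Fibroblast and pericyte markers had 6 of 14 tested genes higher in T-LM and none in KPT, 42.9% against 11.2% of all tested genes. Of the 6, Fap and Pdgfra were at background in all KPT samples and were tested only through T-LM signal. The mean level over the 16 markers of the list was −5.96 to −5.31 in KPT, −4.53 to −3.23 in T-LM and −7.68 and −7.57 in P0. The summed level of the list was 0.37 to 1.17 in KPT and 1.96 to 3.97 in T-LM. The pericyte marker Rgs5 and the fibroblast marker Dpt were at background on all 9 arrays. Several of these markers, Col3a1, Lum and Fap among them, are also members of the matrix and mesenchymal lists. The part of other cells in those lists was not tested.

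Lung epithelial markers separated the routes as well. Of 15 markers 4 were above background in KPT and 7 to 10 in T-LM. Of 10 tested genes 5 (50%) were higher in T-LM and none in KPT, against 11.2% of all tested genes called. These 5, Sftpb, Sftpc, Sftpd, Ager and Hopx, were at background in all KPT samples. They were tested only through their T-LM signal, so the count is no independent evidence of direction. Sftpc, the surfactant protein of alveolar type II cells, was singled out after its values were seen: it was at background in KPT, at −9.15 to −8.45, and stood at −3.64, −0.88, −2.57 and −3.95 in T-LM. Sftpd, a second surfactant gene, stood at −3.59, −2.39, −2.57 and −3.23 in T-LM and was at background in all KPT samples. T-LM replicate 2 had the highest level of both. The lung lineage factor Nkx2-1 and the surfactant gene Sftpa1 were at background on all 9 arrays. The summed level of the list was 0.22 to 0.50 in KPT and 0.70 to 1.27 in T-LM.

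Of the remaining marker lists, 2 of 5 tested endothelial genes, 1 of 3 kidney tubule genes and 2 of 3 adipocyte or mesothelial genes were higher in T-LM and none was higher in KPT. In that order 40, 33.3 and 66.7% of tested members were called, against 11.2% of all tested genes. The endothelial genes called were Egfl7 and Cldn5, and Cldn5 was tested only through its T-LM signal. The tubule gene called was Aqp1. Kdr, Egfl7 and Esam of vessels and Aqp1 and Cubn of kidney tubules were well above background on all 9 arrays. Pecam1, Tek and Tie1 of vessels and Umod, Slc12a1 and Slc12a3 of kidney tubules were at background on all 9. The study describes the lines as cultured until cells without GFP were no longer detected, whereas the labels name tumours and metastases as the source and give a tissue homogenisation step.

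**Figure D3:**
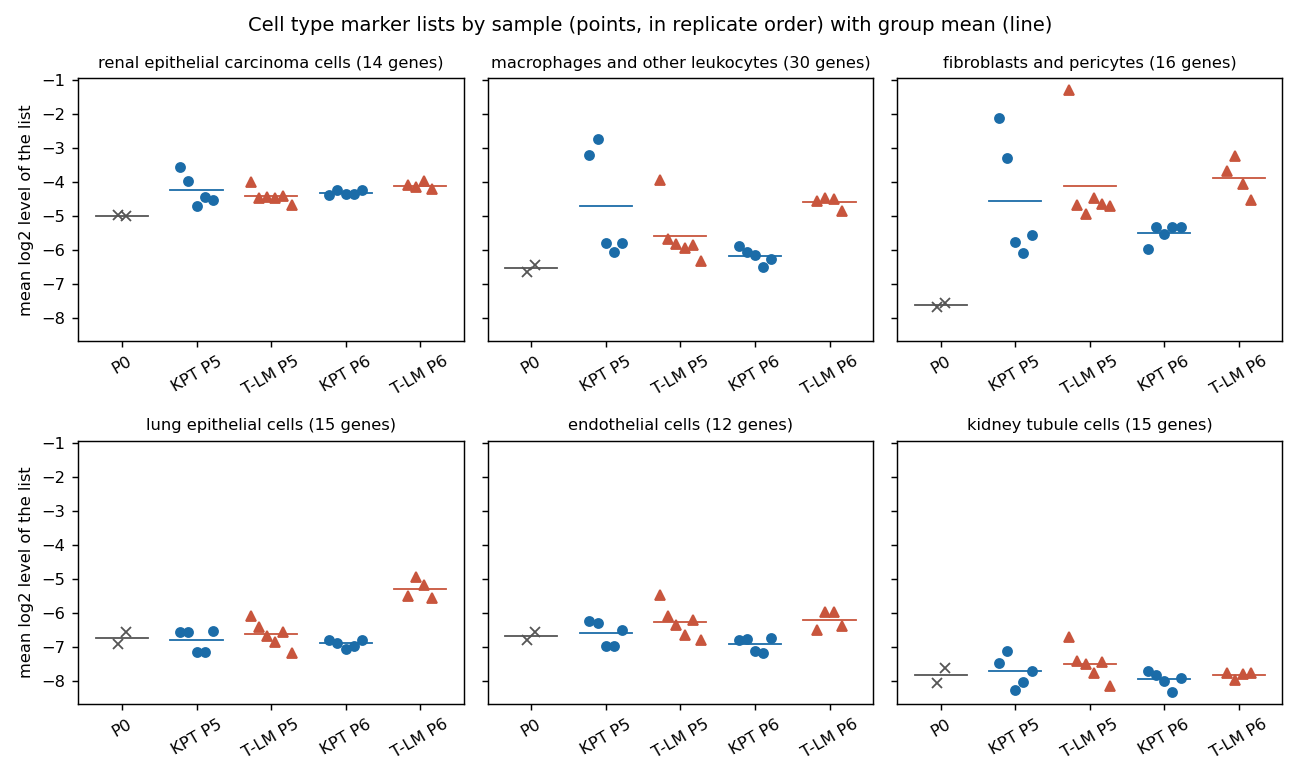
Mean level of 6 cell type marker lists in P0, KPT P5, T-LM P5, KPT P6 and T-LM P6, 1 point per sample, on the log2 scale relative to the 75th percentile of the array. Leukocyte markers lie at −6.48 to −5.88 in KPT P6 and −4.84 to −4.47 in T-LM P6, and at P5 the KPT replicates 1 and 2 and T-LM replicate 1 stand above the other P5 samples.

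At P5 the same routes were compared in 5 KPT and 6 T-LM samples. Of 11234 genes tested 2.75% were called (2.53% of probes), 1.06% higher in T-LM and 1.69% higher in KPT. The count rested on single samples: 486 probes were called with all of them, from 89 (without KPT replicate 4) to 815 (without T-LM replicate 1) when 1 was left out, and 28 with a replicate block. The split depended on the scaling: 43.0% of called probes were higher in T-LM, and 74.2% were when the percentile was taken over all probes, which moved the median difference of all probes from −0.07 to 0.08. In the fit with all samples, 765 of the genes higher in T-LM at P6 were tested at P5, 458 of them (59.9%) had the same direction, 40 were called in the same direction and 3 in the other. Of those higher in KPT at P6, 336 were tested at P5, 282 (83.9%) had the same direction, 29 were called in it and 1 in the other. Among all 11067 genes tested at both passages 58.7% had the same direction.

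The P5 samples were uneven in marker levels. Leukocyte markers averaged −3.19 and −2.71 in KPT replicates 1 and 2 and −3.93 in T-LM replicate 1, against −6.31 to −5.67 in the other P5 samples. Without these 3 samples, a choice made after seeing the data, 76.8% of 521 tested genes higher in T-LM at P6 and 89.2% of 334 genes higher in KPT had the same direction at P5, against 61.6% of all genes. In that fit 245 and 123 of them were called in the same direction and 23 and 3 in the other.

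Saa3, Mmp3, Tspan32, Cavin4, Cdh16 and Bmp7 were called at P5 in the P6 direction with all samples in, with differences of 4.98, 4.50, −2.46, −2.08, −3.34 and −2.79. For Mmp3 the KPT levels were −4.37, −6.36, −8.31, −8.45 and −7.81 and the T-LM levels ran from −4.08 to 0.22. Grem1 differed by 4.29 at P5 (SE 0.97, limma adjusted p = 0.02) and by 5.58 without the 3 samples, and Il6 by 3.00 and 5.07. Il6 in the KPT P5 samples was −0.76, −1.65, −7.91, −8.33 and −7.04, so 2 of 5 overlapped the T-LM range of −3.67 to 0.64.

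Other leading P6 genes were not called at P5 with all samples in. Pf4 differed by −0.85 at P5 (limma adjusted p = 0.83) and by 1.64 without the 3 samples (limma adjusted p = 0.013). Cxcl14 differed by 0.54 (limma adjusted p = 0.85) and by 2.27 without them (limma adjusted p = 3.2e-03). Tyrobp and Cd52 pointed to KPT at P5, with differences of −3.23 and −3.29 that were not called. Without the 3 samples both were called higher in KPT, opposite to P6, with differences of −1.99 each (limma adjusted p = 6.2e-03 and 7.2e-03), and those samples had been chosen by a list that holds both genes. Surfactant genes were not tested at P5 because no 2 arrays were above background.

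The difference between the passages was tested as an interaction in 1 fit over both, where 2.19% of 12034 genes and 1.79% of probes were called. A larger T-LM minus KPT difference at P6 was called for 1.70% of genes and a smaller one for 0.499%. Among called probes 74.8% had the larger difference at P6, and 51.7% with the percentile taken over all probes, which moved the median change of all probes from 0.07 to −0.17. Krt7 differed by −1.18 at P5 and 3.36 at P6, and the change of 4.54 passed (limma adjusted p = 1.1e-03). Bmp7 kept its direction but its difference was 1.18 nearer to 0 at P6. Mmp3, Grem1, Il6, Tspan32 and Cavin4 did not pass that test, with changes of 1.70, 2.37, 3.04, −0.35 and −0.65.

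**Figure D4:**
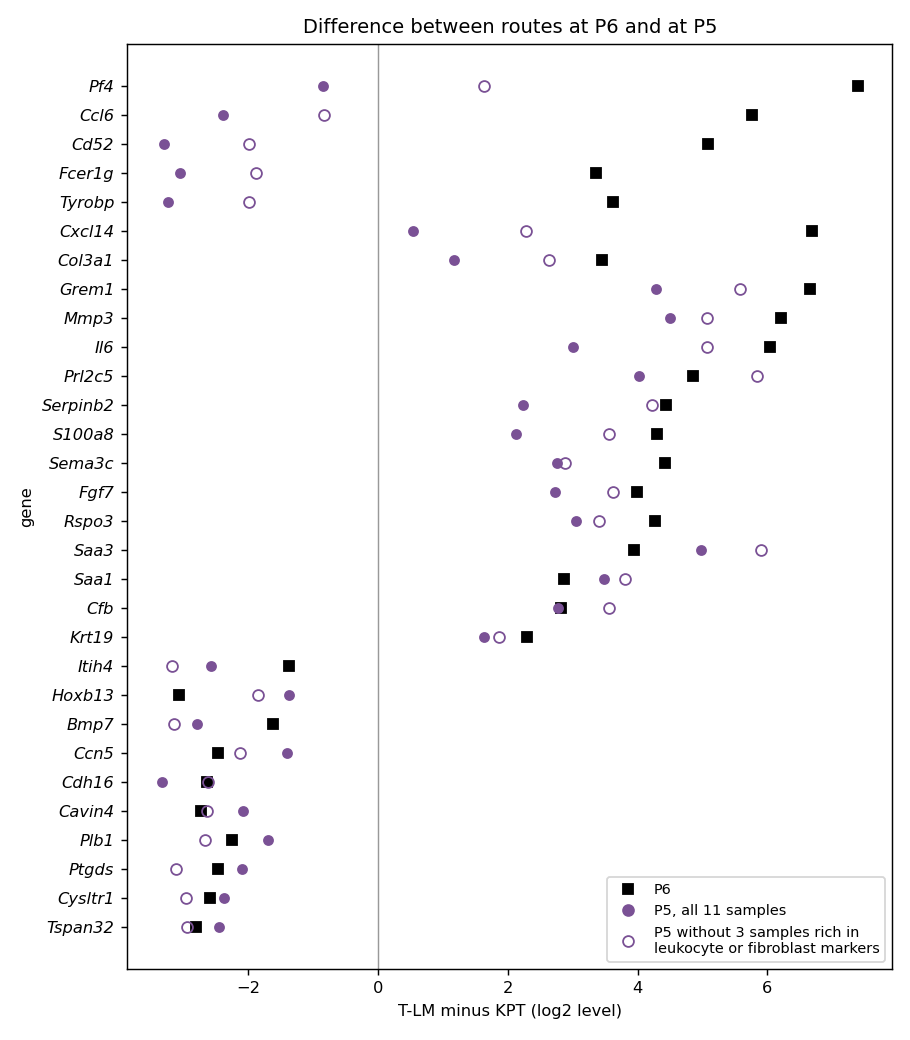
Difference between T-LM and KPT on the log2 scale for named genes at P6, at P5 with all 11 samples, and at P5 without KPT replicates 1 and 2 and T-LM replicate 1. Points right of 0 are higher in T-LM: Saa3 lies at 3.95 and 4.98 at P6 and P5, and Tspan32 at −2.81 and −2.46, while Cd52 lies at 5.09 at P6 and −3.29 at P5.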

How the data were processed

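Total RNA was labelled with Cy5 and hybridised to single-colour Agilent mouse arrays. The deposited scanner files hold spot intensity, which per the file headers was background-subtracted and detrended by Feature Extraction 11.0.1.1 (first-set slides). The deposited series table holds log2 values that matched quantile-normalized raw median intensity within 0.105. Of 62976 spots 3671 controls were left out, and 184 to 241 outlier-flagged spots per array were set missing. Each processed intensity was divided by the array's 75th percentile over 11287 probes well above background on all 70 arrays. Of 55681 probes 28026 matched a RefSeq symbol, 21154 symbols in all. Probes entered a fit when 2 or more of its arrays showed them well above background. Groups were compared with limma 3.58.1 in R 4.3.3 (lmFit and eBayes, two-sided, no covariate, Benjamini-Hochberg adjustment, threshold 0.01, as in the study's methods), after a test on simulated data. A bound takes, per array at background, the higher of the lowest signal well above background and the probe's own signal. Precision is limited by the 5 and 4 arrays per group. Named genes were the 8 largest differences with both groups measured, the 6 largest bounds, the 3 largest calls per function list and direction, and genes fixed by name (Cdh1, Cdh2, Epcam, Vim, Pax2, Pax8, Saa2, Cfb, both signatures). Other names, such as marker genes, were singled out after their values were seen. The members, the 30 function lists and the 7 marker lists were chosen with earlier results of these data known. Alternatives covered the filter, scaling, background correction, the series values, a floor, slide and replicate blocks, repeat arrays and left-out samples. One result under the rule for named genes is not reported here.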

Additional observations from a re-analysis of the deposited data

Results flagged for a closer look

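In 17 of 310 groups of values, 1 sample lay far from the others by Dixon's test, and chance alone gives about 1 in 20. In T-LM replicate 2 these were C2 (level −1.98), Cavin4 (−4.69), Crabp2 (0.27), Itih4 (−5.51) and the mean of the kidney tubule markers (−7.98). In KPT replicate 1 they were Cdkn2b (−8.28), Col4a1 (−7.75), Dkk3 (−7.41), Fkbp10 (−5.74) and Krt19 (−4.01), each the lowest KPT sample. The others were Itih4 (−5.11) and Lama4 (−8.07) in KPT replicate 4, Lum (−6.64) in KPT replicate 3, Cfb (−7.78) in KPT replicate 5, Rsad2 (−7.62) in T-LM replicate 1, Bglap3 (−5.40) in T-LM replicate 4 and the mean of the adipocyte and mesothelium markers (−5.77) in T-LM replicate 3.

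For 22 of the 148 genes examined one by one, the T-LM minus KPT difference itself differed between P6 and P5 (limma interaction, two-sided, log2 scale). The difference was larger at P6 for the lung epithelial markers Sftpc (by 5.57), Sftpd (5.32), Hopx (3.31) and Ager (2.46), for Krt7 (4.54) and Cdh1 (2.88) of epithelia and for the endothelial marker Cldn5 (2.202). Of these, Sftpc, Sftpd, Ager, Cdh1 and Cldn5 were too dim to be tested at P5 and were at background in all KPT P6 samples. Their changes set the T-LM P6 levels against background signal, so the printed sizes are uncertain. Irx1, a homeobox factor, changed by 4.01, the GPI-anchor gene Pigz by 3.93, the sterol exporter Abca1 by 3.93 and S100a14 by 3.48. Cd52, a leukocyte gene, changed by 8.38, and the integrin chains Itgb2 and Itgb6 by 2.46 and 2.39. Smaller positive changes were those of Bmp7 (1.18), Oasl1 (1.18) and Msln (0.96). The difference moved toward KPT for Ccdc192 (−2.95), Bglap2 (−1.75), Bglap3 (−1.61), Padi3 (−1.47) and Fbln1 (−1.27). Of the P5 samples, KPT replicates 1 and 2 and T-LM replicate 1 had the highest leukocyte and fibroblast marker levels. Without them, a choice made after seeing the data, each of these changes kept its direction and passed the test except that of Oasl1 (1.12, limma adjusted p = 0.013); Cd52 changed by 7.08, Krt7 by 3.66 and Sftpc by 5.56.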

How the results depend on the processing

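At P6, 1822 probes were called. The count stayed between 1300 and 2311 with the dim-probe filter at 4 arrays or absent, other percentiles, normexp with quantile normalization of the raw median signal (the files hold no mean signal), the series values, a floor, a trend, the repeat arrays or an RNA index as covariate, and between 1399 and 1650 without any 1 sample. It was 797 with probes above background on all arrays (fewer were tested, and 55.1% of calls were higher in T-LM, against 69.8%). Over all first-set arrays it was 620 with spread pooled over groups, 590 with slide added as a random block and 356 as a fixed block. Of 142 called named genes, 59 were tested in the first of these and 58 of them called. All 142 were tested in the others, with 68, 62 and 37 called, and 129 to 135 without any 1 sample. Pax8, not called, changed sign to 0.0802 within the slide that held both routes. No other named gene changed sign in any setting run. Leaving out 1 sample ended at least 1 call each for Ccn2, Col18a1, Csf1, Dhcr7, Epcam, Hoxa5, Igfbp3, Nrp2, P3h2, Plxna3, Ppargc1a and Sftpb. The percentile over all probes shifted the median of all probes by −0.098 and the share higher in T-LM to 60.5%.

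Replicate numbers are shared by the groups, and deviations of same-numbered samples correlated at 0.24, −0.40, 0.22 and −0.41. With so few samples these values cannot decide whether the numbers pair them, and the main fit used no pairing. With a replicate block 1038 probes (829 higher in T-LM, 209 in KPT) and 110 named genes were called.

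At P5, 486 probes were called, 43.0% of them higher in T-LM. The count was 109 with no filter, 310 with normexp, 264 with the series values, 1407 with slide as a fixed block, 28 with the replicate block and 1684 without KPT replicates 1 and 2 and T-LM replicate 1. It ran from 89 (without KPT replicate 4) to 815 (without T-LM replicate 1), and was 93 and 110 without KPT replicates 3 and 5 and 111, 94, 105 and 170 without T-LM replicates 3 to 6. With the percentile over all probes 74.2% of calls were higher in T-LM. For the difference between passages 381 probes were called, against 205 with probes above background on all arrays, 230 with slide as a fixed block, 1166 without the 3 P5 samples, 329 with the percentile over all probes (51.7% larger at P6, against 74.8%), and 203 (without T-LM P6 replicate 3) to 928 (without T-LM P5 replicate 1). Leaving out KPT P6 replicates 1, 2 or 3 gave 251, 247 and 245, and T-LM P6 replicates 1 or 2 gave 227 and 240. The causes of these shifts were not tested. Signal at background limits 457 and 52 called genes to bounds.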
